A study of Sus scrofa with 2 samples.

Results

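The data describe 3 enzymes of de novo lipogenesis, ACACA, FASN and SCD, in the *longissimus dorsi* muscle (LM) of pigs. De novo lipogenesis makes fatty acids from acetyl-CoA in the cytosol. ACACA (acetyl-CoA carboxylase alpha) forms malonyl-CoA, which is the committed step, FASN (fatty acid synthase) condenses malonyl-CoA units into palmitate, and SCD (stearoyl-CoA desaturase) places the first double bond into the saturated product. In the pig, adipose tissue is the main site of this pathway, while muscle fibers mostly use the paralog ACACB, whose malonyl-CoA restrains the entry of fatty acids into mitochondria. LM also holds the adipocytes of intramuscular fat.

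The members were found in the deposited table by the RefSeq protein accession of the pig gene in the nr match. This gave 3 unigenes of the 65535 listed, 1 for each enzyme, so each unigene represents its gene. The paper reports more assembled unigenes than are listed. The listed ones held 87.0% of the Yorkshire library total and 72.7% of the Shaziling library total. Genes, or further pieces of a gene, outside the list could not be found, so their absence here does not show absence from the tissue. No sequence of these unigenes was used here.

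The samples were LM of male Yorkshire pigs, a lean breed, and male Shaziling pigs, an indigenous Chinese breed, slaughtered at 25 days of age, with no treatment in either group. The columns name 3 pigs per breed, which came from 1 full-sib family each, and hold 1 value per breed. Each breed was therefore treated as 1 library without replicates, and breed, litter and library cannot be told apart. The sample titles and the column names give the same breed and were followed, although a further descriptive field gives the lean class to Shaziling and the indigenous class to Yorkshire.

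The comparison of the breeds asks whether their LM differs in transcripts of lipogenesis, as Shaziling is kept as a fat-type line. RPKM values (reads relative to unigene length and library size) are given as deposited. The library totals behind them were 33949238 reads (Yorkshire) and 28305925 reads (Shaziling). The 95% intervals are exact (Poisson for a level, Clopper-Pearson for a ratio) and cover counting error only, not the spread between pigs. All ratios compare Shaziling with Yorkshire unless another pair is named. The 2 unigenes with the most Yorkshire reads (11617 and 3670 bp) are called mitochondrial here. They were picked by their reads and not by their match. Because they took 46.4% of all Yorkshire reads and 11.8% of all Shaziling reads, the ratios depend on the scaling of the libraries. Each direction was therefore also checked with library totals that leave out these unigenes. The muscle fiber markers of the tissue were abundant. Of 12 markers, 5 were found, and their summed RPKM was 4367 in Yorkshire and 8924 in Shaziling. Without the mitochondrial unigenes in the totals the ratio of these sums was 1.24. MYH1 (0.952) and MYH7 (0.809) then lay below 1, and CASQ1 (1.14), DES (1.52) and MYLPF (3.49) above it.

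FASN had the largest ratio of the 3 enzymes. Its unigene First_Contig970 (2991 bp) was covered by 52 reads, with an RPKM level of 0.512 (95% interval 0.382 to 0.672) in the Yorkshire library. It was covered by 261 reads and reached an RPKM level of 3.08 (95% interval 2.72 to 3.48) in the Shaziling library. The ratio was 6.02 (95% interval 4.46 to 8.27). With library totals without the mitochondrial unigenes the ratio was 3.66 (95% interval 2.71 to 5.03), so FASN stayed higher in the Shaziling library.

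ACACA, the enzyme before FASN in the pathway, differed less. First_Contig1775 (2088 bp) was covered by 65 Yorkshire reads, for an RPKM level of 0.917 (95% interval 0.708 to 1.17). The 100 Shaziling reads gave a level of 1.69 (95% interval 1.38 to 2.06). The ratio was 1.85 (95% interval 1.34 to 2.56), below a fold of 2. Without the mitochondrial unigenes in the totals it was 1.12, and its 95% interval from 0.813 to 1.56 included 1.

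SCD, the enzyme after FASN, was the least abundant of the 3 in both libraries. Its unigene contig_34003 (482 bp) was covered by 6 Yorkshire reads, for an RPKM level of 0.367 (95% interval 0.135 to 0.798). The 11 Shaziling reads gave a level of 0.806 (95% interval 0.402 to 1.44). Its ratio of 2.20 had a 95% interval from 0.745 to 7.24. At this depth a difference of SCD between the libraries was not detectable on this unigene.

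**Figure D1:**
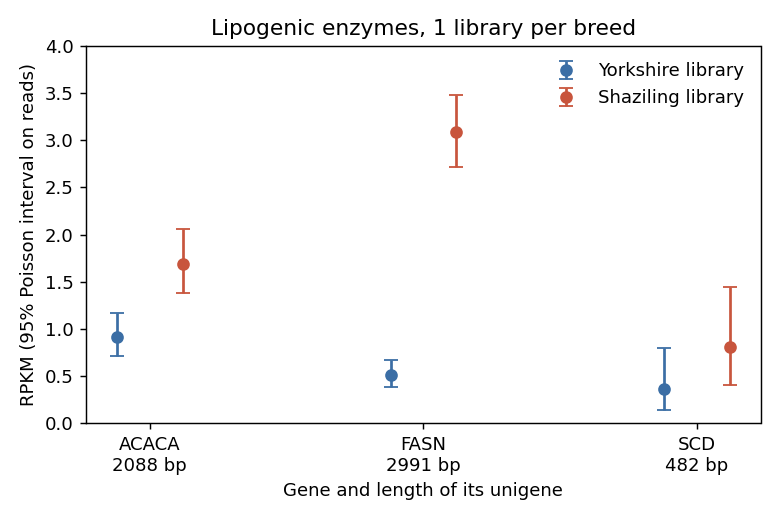
RPKM (vertical axis, linear from 0) of the unigenes of ACACA, FASN and SCD in the Yorkshire library (blue) and the Shaziling library (red), with 95% Poisson intervals on the reads as bars; each point is 1 library. The intervals of FASN lie far apart (0.512 against 3.08), those of ACACA are separated by a small gap, and those of SCD overlap.

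All 3 enzymes were among the less abundant genes of the tissue. Over the 4484 pig symbols of the table, the median RPKM of the representative unigenes was 2.31 in Yorkshire and 3.75 in Shaziling, above each of the 3 enzymes in both libraries. FASN exceeded 16.0% of the symbols in Yorkshire and 44.0% in Shaziling. ACACA exceeded 26.4% and 25.5%, and SCD exceeded 11.2% and 8.94%. Only the place of FASN moved by more than 3 percentage points between the libraries.

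The ratios have to be read against the table as a whole, which leaned toward Shaziling. Where a minimum RPKM level of 1 was reached in either library (37352 unigenes), 39.6% were higher in Shaziling by a fold of 2 or more, and 15.3% were higher in Yorkshire by this fold. With library totals without the mitochondrial unigenes these shares were 25.1% and 27.3%. FASN and ACACA passed this minimum only through the Shaziling library and SCD did not pass it, so no count of the enzymes past the fold is drawn from it. Over all pig symbols the median ratio was 1.60. The ratio of FASN was 3.76 times this median, that of ACACA 1.15 times and that of SCD 1.38 times. A ratio as high as that of FASN was found in 9.46% of the symbols, one as high as that of SCD in 35.9%, and one as high as that of ACACA in 42.8%.

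The balance between the enzymes can be compared within a library, where the library total has no part in the value. Of the 3 pairs of enzymes, FASN and ACACA differed most clearly between the libraries. In Yorkshire, FASN had 0.558 times the RPKM of ACACA (95% interval 0.380 to 0.817), and in Shaziling 1.82 times (95% interval 1.44 to 2.32). The balance was 3.26 times higher in Shaziling, with an exact 95% interval of 2.07 to 5.14. The order of the levels therefore differed, with ACACA above FASN in Yorkshire and FASN above ACACA in Shaziling. The balance of FASN to SCD was 1.40 in Yorkshire and 3.82 in Shaziling, a difference of 2.74 times with an interval (0.791 to 8.48) that included 1. In Yorkshire the levels of FASN and SCD did not differ beyond counting error, since the interval of their balance was 0.600 to 3.98. The balance of SCD to ACACA was 0.400 and 0.477, and the interval of its difference (0.381 to 4.12) also included 1. With the further unigenes described next, that difference was 2.34 times, with an interval from 1.03 to 5.83. With 0.5 times the reads, as mates may be counted singly, this interval was 0.732 to 11.1 and included 1.

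These further unigenes of the enzymes were sought among matches to other protein records, a step added after the values were seen. A pair of unigenes matched the protein chain of a crystal structure with 2512 residues, the length of pig FASN, and a pair matched a further record with 2346 residues, the length of pig ACACA. The authors' pathway annotation places a unigene of each of these records in fatty acid biosynthesis. A second SCD unigene matched the Swiss-Prot entry of the pig enzyme (ACOD_PIG). The assignment of the first 4 rests on the protein length and the pathway and is less certain than that of the members.

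The further FASN unigenes had the direction of the first. The unigene contig_58606 (2023 bp) was covered by 20 Yorkshire reads and 166 Shaziling reads, and its ratio was 9.95 (95% interval 6.24 to 16.7). The unigene contig_71275 (641 bp) was covered by 4 and 46 reads, respectively, and its ratio was 13.8 (95% interval 5.04 to 52.8). Together the 3 FASN unigenes covered 5655 bp, against a coding length of 7536 bp, with 76 reads in Yorkshire and 473 in Shaziling. The RPKM over the 3 was 0.396 and 2.95, with a ratio of 7.46 (95% interval 5.85 to 9.64). A ratio above 1 was kept in all 3 without the mitochondrial unigenes in the totals, where they ranged from 3.66 to 8.38.

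The ACACA unigenes were less uniform. The unigene contig_48283 (1290 bp) was covered by 40 and 52 reads, with a ratio of 1.56 (95% interval 1.01 to 2.42). The longest, contig_30487 (2185 bp), was covered by 88 and 77 reads, with a ratio of 1.05 (95% interval 0.763 to 1.44). Over the 3 unigenes (193 and 229 reads) the ratio was 1.42 (95% interval 1.17 to 1.73), and it fell below 1 without the mitochondrial unigenes in the totals (0.865, 95% interval 0.711 to 1.05). No direction of ACACA is therefore given. On all unigenes, the balance of FASN to ACACA was 0.387 in Yorkshire and 2.03 in Shaziling, a difference of 5.25 times (95% interval 3.81 to 7.24).

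The second SCD unigene, contig_32855 (459 bp), was covered by 3 Yorkshire and 14 Shaziling reads, which gave a ratio of 5.60 with a 95% interval from 1.56 to 30.4. Over both SCD unigenes there were 9 and 25 reads and a ratio of 3.33 (95% interval 1.50 to 8.11). Without the mitochondrial unigenes in the totals the ratio was 2.02, and the interval from 0.914 to 4.93 included 1. A unigene of 768 bp, contig_61860, matched a protein of 2316 residues that the same annotation places in fatty acid biosynthesis. It had 2 and 39 reads, a ratio of 23.4 (95% interval 6.05 to 199.9), and could not be assigned to 1 of the enzymes.

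**Figure D2:**
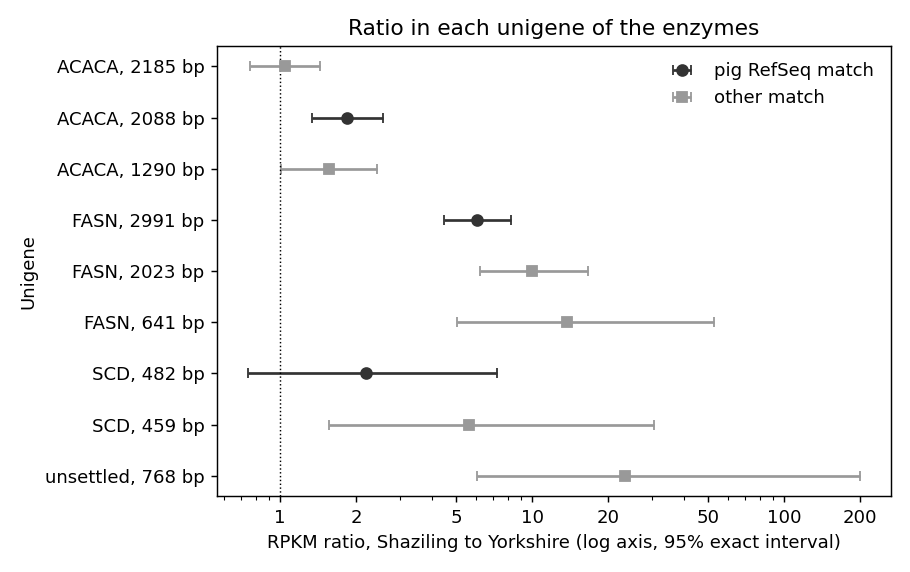
Ratio of RPKM of Shaziling to Yorkshire (horizontal log axis, points) with exact 95% intervals (bars) for each unigene of ACACA, FASN and SCD, and for the unigene of 768 bp that could not be assigned. Black circles are matches to the pig RefSeq protein. Grey squares are matches to other records, including that of the unassigned unigene. The 3 FASN unigenes lie from 6.02 to 13.8 and the 3 ACACA unigenes from 1.05 to 1.85.

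The paralog ACACB was more abundant than ACACA in both libraries. Its unigene contig_2890 (8872 bp) was covered by 2193 Yorkshire and 1924 Shaziling reads, for RPKM levels of 7.28 and 7.66. The ratio was 1.05 (95% interval 0.989 to 1.12), and 0.640 without the mitochondrial unigenes in the totals. Per length, ACACB had 7.94 times the level of ACACA in Yorkshire (95% interval 6.20 to 10.3) and 4.53 times in Shaziling (95% interval 3.70 to 5.59). The balance was lower in Shaziling by a factor of 0.570 (95% interval 0.408 to 0.792), and by 0.739 (95% interval 0.601 to 0.909) on all ACACA unigenes. The paralogs are similar in sequence, and how shared reads were divided between them is not given in the sources used here.

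Of 36 other genes of the pathway, 17 were found by pig RefSeq accession, and 16 of these reached an RPKM level of 1 in either library. Their median ratio was 1.83, beside 1.60 over the 4030 pig symbols past the same minimum. By a fold of 2 or more, 6 of the 16 were higher in Shaziling and 1 was higher in Yorkshire. Without the mitochondrial unigenes in the totals there were 3 and 1. Over these symbols, 39.1% were higher in Shaziling and 4.04% in Yorkshire by this fold, and 21.1% and 16.5% without the mitochondrial unigenes, so the share of the list was near that of the table in the Shaziling direction. In 4 of the 6 genes the minimum was reached only in Shaziling, and in the gene higher in Yorkshire only in Yorkshire, so these 5 could pass only in the direction in which they differed. Of the 11 genes that reached it in both libraries, NR1H2 and SCAP were past the fold, both higher in Shaziling.

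The genes of substrate and cofactor supply stayed below a fold of 2. ACSS2, which makes acetyl-CoA from acetate, had a ratio of 1.14 (RPKM 19.3 and 21.9). ME1 (malic enzyme) and PGD (phosphogluconate dehydrogenase), which supply the NADPH for FASN, had ratios of 1.78 (95% interval 1.38 to 2.30) and 1.88 (95% interval 1.51 to 2.35). The RPKM of ME1 was 1.47 in Yorkshire and 2.62 in Shaziling, and that of PGD was 2.19 and 4.12. Both were closer to the ratio of ACACA than to that of FASN. Without the mitochondrial unigenes in the totals the ratios were 1.08 (95% interval 0.836 to 1.40) and 1.14 (95% interval 0.919 to 1.43), and both intervals included 1.

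Among the acyl-CoA synthetases, which activate fatty acids for use by other enzymes, ACSL1 was the most abundant, with RPKM levels of 70.2 and 64.8. Its ratio was 0.923 (95% interval 0.894 to 0.953), and 0.561 (95% interval 0.544 to 0.579) without the mitochondrial unigenes in the totals. ACSL3 and ACSL4 had ratios of 1.48 and 1.22, which fell below 1, like that of ACSS2, in the totals without the mitochondrial unigenes. SCD5, a second stearoyl-CoA desaturase, was covered by 8 and 20 reads, with a ratio of 2.998 (95% interval 1.27 to 7.87). In the separate mitochondrial pathway of fatty acid synthesis, MCAT (malonyl-CoA transacylase) had a ratio of 3.11 (22 and 57 reads) and MECR (enoyl reductase) a ratio of 1.94 (68 and 110 reads). Without the mitochondrial unigenes in the totals, the intervals of SCD5 (ratio 1.82, 0.769 to 4.78) and MECR (ratio 1.18, 0.864 to 1.62) included 1.

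The regulators held the largest ratios of the list in both directions. SREBF1, the transcription factor SREBP-1 that activates lipogenic genes, had 0 reads in Yorkshire and 14 in Shaziling on a unigene of 412 bp, and was at least 5.60-fold higher in Shaziling when 3 reads were set as the floor in the Yorkshire library (3.40-fold without the mitochondrial unigenes in the totals). The floor leaves out the counting error of the 14 reads, and the exact 95% interval of the ratio started lower, at 3.98 (2.42 without the mitochondrial unigenes). SCAP, which escorts SREBP for its processing, was covered by 158 and 586 reads, with RPKM levels of 1.13 and 5.03 and a ratio of 4.45 (95% interval 3.73 to 5.34). INSIG1, which retains SCAP in the endoplasmic reticulum, had 32 and 72 reads and a ratio of 2.70 (95% interval 1.76 to 4.23). NR1H2 (liver X receptor beta), a sterol-sensing receptor, had RPKM levels of 2.53 and 10.4, with a ratio of 4.09 (95% interval 3.38 to 4.99). The 4 other scalings multiply all ratios by factors of 0.608 to 0.783, which could not bring the ratios of SCAP, INSIG1 and NR1H2 to 1. With 0 Yorkshire reads, no scaling could change the direction of SREBF1. The ratio of INSIG1 fell below 2 with TMM factors and was 1.64 without the mitochondrial unigenes.

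MLXIPL (ChREBP), the carbohydrate-responsive transcription factor of lipogenic genes, was the gene past this fold in Yorkshire, but its unigenes differed among themselves. The representative contig_39808 (252 bp) was covered by 18 Yorkshire reads and 3 Shaziling reads, for a ratio of 0.200 (95% interval 0.0377 to 0.685). The unigene contig_20553 had 10 and 7 reads and contig_52867, the longest, had 23 and 30, with ratios of 0.840 and 1.56 whose intervals included 1. USF1 and USF2, which bind E-boxes of lipogenic promoters, had 2 and 11 reads (ratio 6.60, 95% interval 1.44 to 61.2, and 0.875 to 37.2 without the mitochondrial unigenes) and 1676 and 2216 reads (ratio 1.59). The ratio of USF2 fell below 1 without the mitochondrial unigenes in the totals.

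**Figure D3:**
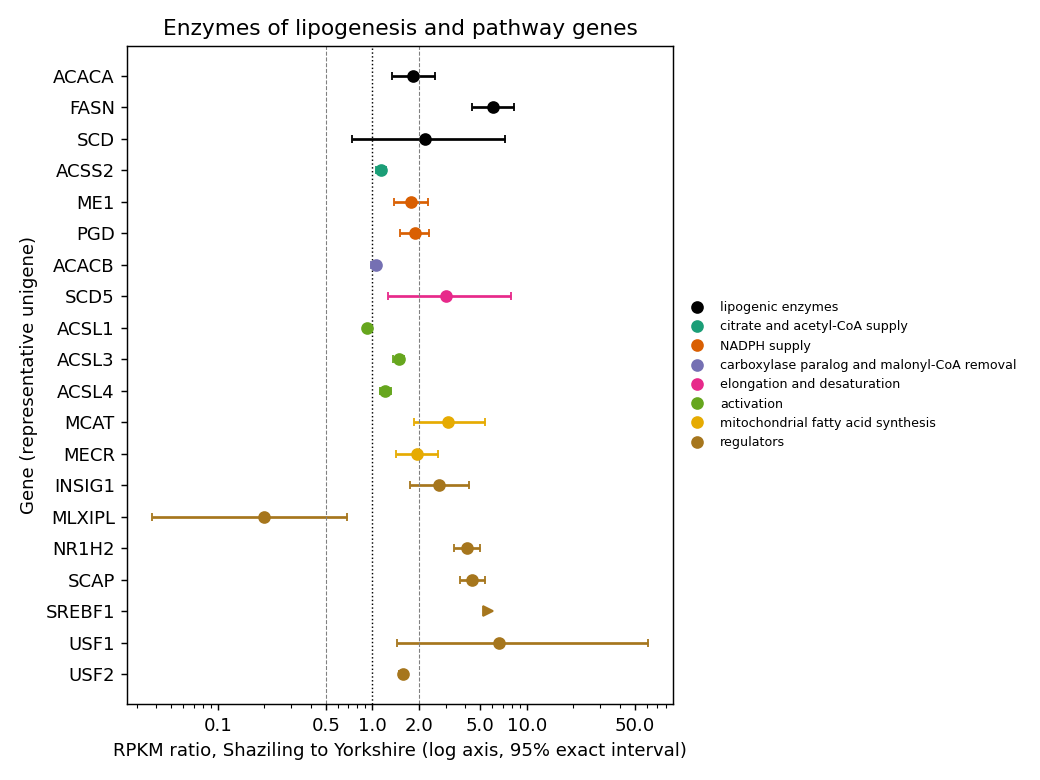
Ratio of RPKM of Shaziling to Yorkshire (horizontal log axis) of the 3 lipogenic enzymes and of the 17 pathway genes found, colored by role, with exact 95% intervals as bars, a dotted line at 1 and dashed lines at a fold of 2; the arrow of SREBF1, which had 0 Yorkshire reads, stands at 5.60, the ratio against a floor of 3 reads. FASN, SCAP, NR1H2 and SREBF1 lie to the right, MLXIPL alone lies far to the left, and ACACB and ACSL1 lie at about 1.

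The markers of other cell types of the tissue also differed between the libraries. Of 11 adipocyte markers, 3 were found and none was at 0. Their summed RPKM was 30.6 in Yorkshire and 76.1 in Shaziling. FABP4, the adipocyte fatty acid-binding protein, had a ratio of 1.86, CIDEC, a lipid droplet protein, 4.20 (8 and 28 reads), and CFD (adipsin, found by its Swiss-Prot entry) 7.65. In the totals without the mitochondrial unigenes these ratios were 1.13 for FABP4, 2.55 for CIDEC and 4.65 for CFD. FABP4 held most of the summed RPKM of these markers (27.1 and 50.5). The 2 erythroid markers found of 4 had a summed RPKM of 18.9 and 212, and CSF1R, the macrophage marker found of 4, had 0.619 and 3.89. The 3 endothelial markers found of 4 summed to 35.2 and 58.5, and the 3 fibroblast markers found of 5 to 617 and 556. Without the mitochondrial unigenes in the totals, the ratio of the sums was 1.51 for the adipocyte, 6.80 for the erythroid, 1.01 for the endothelial and 0.548 for the fibroblast markers, and 3.82 for CSF1R. Of the endothelial markers, PECAM1 and KDR then lay below 1 (0.825 and 0.930), while VWF stood apart from both (12.3). The part of these cell types in the result on FASN was not tested. In bulk RNA, fewer cells of a type and less RNA per cell cannot be told apart.

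The genes whose levels lay nearest to each enzyme, by the distance in log2(RPKM + 1) over the 2 libraries, were KLHDC8B, G6PC3 and CCDC22 for FASN, CHST7, VAV2 and PLA1A for ACACA, and STARD4, CERS4 and CCRL2 for SCD. The distances ranged from 0.011 to 0.042. With 2 libraries, this likeness says only that the pairs of values were close.

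**Figure D4:**
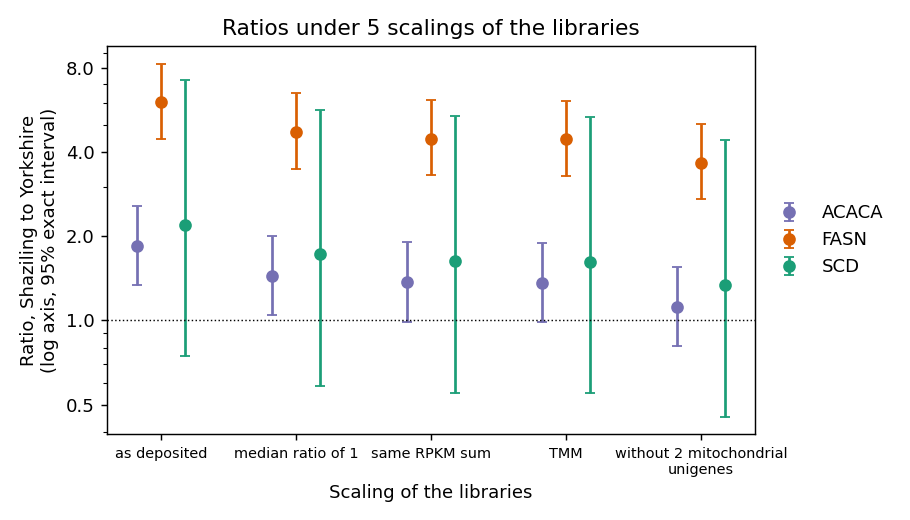
Ratio of Shaziling to Yorkshire (vertical log axis) of ACACA, FASN and SCD with exact 95% intervals (bars) for the values as deposited and for 4 other scalings of the libraries (horizontal axis). FASN lies between 3.66 and 6.02 with intervals above 1 throughout, and ACACA between 1.12 and 1.85. The interval of ACACA includes 1 with the same RPKM sum (0.991 to 1.90), with TMM (0.986 to 1.89) and without the mitochondrial unigenes (0.813 to 1.56). The intervals of SCD include 1 under each scaling.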

How the data were processed

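The authors extracted total RNA of the LM and made cDNA libraries from it, which were sequenced as paired-end reads. The reads of both breeds were assembled de novo with CLC Genomics Workbench and CAP3 into unigenes, which were matched to the nr database by BlastX. The deposited read counts are whole numbers per unigene without normalization, and the program that counted them is not given in the sources used here. The authors derived the deposited RPKM values in Qualimap. The submitters' processing notes also list CASAVA 1.8, TopHat2 2.0.6 and a mouse genome build, whose part in the table is not given in the sources used here. The deposited unigene lengths are in bp. All columns of per-sample values were used (0 left out).

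Library totals were recovered from reads, lengths and RPKM, and the reads of the table were 29537057 for Yorkshire and 20575805 for Shaziling. With 1 library per breed, no test between breeds, no p-value and no replicate error could be computed. Ratios of RPKM without a pseudocount are given with exact 95% intervals, which treat reads as independent, and intervals with 0.5 times the reads were computed because mates may be counted singly. Where a library had 0 reads, 3 reads were taken as the floor. Symbols came from pig RefSeq accessions (assembly Sscrofa11.1), compared without version, for 5698 unigenes and 4484 symbols, and the unigene with the highest mean RPKM represented a gene. CFD and MYH7 were found by Swiss-Prot entry names. The 3 enzymes are named with every unigene, and the pathway and marker genes were named by role. Those with a mean RPKM below 1 (SREBF1, USF1 and SCD5) are outside the rule for named genes and were added after their values were seen. The members and lists were chosen with earlier results of these data known. Genome coordinates and sequences were not used here. Python 3.11.15, scipy 1.17.1, pandas 2.3.3, numpy 2.4.6, R 4.3.3 and edgeR 4.0.16 (TMM factors only) were used.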

Additional observations from a re-analysis of the deposited data

How the results depend on the processing

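On their representative unigenes, the ratios of FASN, ACACA and SCD were above 1 under 4 scalings. Each scaling multiplied all ratios by the same factor, from 0.608 to 0.783, so ratios well above 1 could not change direction. A pseudocount cannot move a ratio across 1, so the 2 that were tried bear only on its size. Other choices of representative could not change the ratios, since each gene has 1 member unigene. On the further ACACA unigenes the ratio was below 1 without the mitochondrial unigenes (0.638, 95% interval 0.464 to 0.876, for contig_30487). For FASN the ratio moved out of its counting interval with TMM scaling (4.44), with library totals without the 2 mitochondrial unigenes (3.66) and with a pseudocount of 1 (2.70), which compresses low values by construction. For ACACA it did so without the mitochondrial unigenes (1.12). With 0.5 times the reads, the 95% intervals were 3.93 to 9.56 for FASN, 1.16 to 2.96 for ACACA and 0.450 to 13.8 for SCD, and that of the FASN to ACACA balance was 1.66 to 6.18. The intervals of contig_48283 (0.837 to 2.95), contig_32855 (0.917 to 91.0), SCD5 (0.865 to 13.1), USF1 (0.772 to 307) and MLXIPL (0.0127 to 1.13) then included 1, and that of SREBF1 started at 1.73. So did the interval of the difference in the SCD to ACACA balance on all unigenes include 1 (0.732 to 11.1). The scalings shifted all log2 ratios by -0.35 to -0.72. Of the pathway genes, 6 were at least 2 times higher in Shaziling. This count was 5 with TMM, 3 without the mitochondrial unigenes, 3 with a pseudocount of 1 and 2 with an RPKM minimum of 5 (8 genes left). The count of 1 in Yorkshire was 0 with that minimum and 0 with summed unigenes. The median log2 ratio of the list was 0.87, and it was 0.44 with the same RPKM sum, 0.52 with a median log2 ratio of 0, 0.43 with TMM, 0.15 without the mitochondrial unigenes, 0.42 with the minimum of 5 and 0.66 with a pseudocount of 1. The planned match by protein description was not run, because the table holds no descriptions, and the further unigenes replaced it after the values were seen. No paired analysis was possible because each breed has 1 library. Depth limits SCD most, with 6 and 11 reads.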
